A study of Mus musculus with 12 samples.

Results

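Fgf21, Plin3 and Aldh3a2 are 3 mouse genes of hepatic lipid handling, and each was read by 1 probe of the array. They were found by the RefSeq transcript that the array design gives for a probe, and were chosen by their null-minus-control differences, which earlier results of these data had shown to be above 0. They are 3 of the 305 genes that could be named on this array, through 311 of its 33012 probes. Since the difference between Hdac3-null and control liver chose them, that difference is described here without a test.

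The groups were P28 Hdac3-null liver, P28 control liver, P17 Hdac3-null liver and P17 control liver, from C57B/6 mice at postnatal day 28 (P28) or 17 (P17). Hdac3 encodes a histone deacetylase that works in corepressor complexes with NCoR or SMRT. The study's design text gives controls as Hdac3 wild-type or heterozygous mice that express Albumin-Cre, a recombinase driven by the promoter of a hepatocyte gene. The labels call the first control pool of each age wild-type and the second P28 control pool wild-type or heterozygous, and for the second P17 control pool no genotype beyond control was given. RNA from the livers of 5 mice was combined into a pool, and each group held 2 pools on 3 arrays. RNA of the first pool went onto 2 arrays from different chip lots, and RNA of the second pool onto 1. The whole liver was used, so that cells in which the albumin promoter is silent keep Hdac3, and a change in the number of cells of a type cannot be told apart from a change in RNA per cell.

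Fgf21 encodes a hormone that the liver releases, above all in fasting under the nuclear receptor PPAR alpha and in cell stress under ATF4, and that acts on cells carrying beta-Klotho with an FGF receptor. Plin3 encodes perilipin 3, also called TIP47, a coat protein that moves from the cytosol onto forming lipid droplets, the triglyceride stores of the cell. Aldh3a2 encodes the fatty aldehyde dehydrogenase of the endoplasmic reticulum, which oxidises long-chain fatty aldehydes from sphingolipid, ether lipid and fatty alcohol breakdown to fatty acids. In mouse liver, Hdac3 is known as a repressor of lipid synthesis and storage genes.

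In GRCm38.p6 the Fgf21 gene lies at chr7:45613890-45615490, Plin3 at chr17:56278962-56290511 and Aldh3a2 at chr11:61223417-61267528, all protein coding and on the minus strand. The probes are assigned to the transcripts NM_020013.2, NM_025836.1 and NM_007437.1, and the position of a probe within its transcript was not used here. The RefSeq promoter stretches next to their start sites are shown, from 150 bases upstream to the base before the start for Fgf21 and Plin3. The Aldh3a2 start in that table lies 342 bases inside the annotated gene, and for this gene 30 bases are shown. Capitals mark matches to the motifs named after the sequences.
Fgf21, chr7:45615491-45615640, minus strand: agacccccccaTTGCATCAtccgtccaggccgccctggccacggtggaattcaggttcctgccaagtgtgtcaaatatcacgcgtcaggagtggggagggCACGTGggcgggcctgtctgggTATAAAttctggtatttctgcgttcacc
Plin3, chr17:56290512-56290661, minus strand: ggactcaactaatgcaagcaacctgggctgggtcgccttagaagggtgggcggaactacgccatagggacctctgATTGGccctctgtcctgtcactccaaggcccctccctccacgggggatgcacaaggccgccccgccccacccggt
Aldh3a2, chr11:61267193-61267222, minus strand: catagtCACGTGcagcagctcagCCAATga
The motifs were chosen after the sequences were seen, and were searched on both strands in the 250 bases before the start of 32851 promoters. The E-box CACGTG began 50 bases before the Fgf21 start and 30 bases before the Aldh3a2 start and was not found for Plin3, and 6.02% of all promoters held it. TGATGCAA, the core of amino acid response elements, was found on the other strand 139 bases before the Fgf21 start, against 0.791% of all promoters. TATAAA stood 28 bases before the Fgf21 start (12.4% of promoters), and CCAAT 75 bases before the Plin3 start and 13 bases before that of Aldh3a2 (33.8%). Neither AGGTCA, the core motif of many nuclear receptors (14.0%), nor its direct repeat, AGGTCA then 1 base of any kind and AGGTCA again (0.0335%), which contains it, was found in any of the 3 windows. A match is a description of the letters and shows no bound factor. The share of G and C in the 250 bases was 59.6% for Fgf21, 60.0% for Plin3 and 61.2% for Aldh3a2, against a median of 52.4%.

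Signals are given as log2 of the quantile-normalized intensity, on which 1 unit is a doubling. A level of 9.80 on this scale is called the detection level. It was set so that 58.6% of the normalized values fall below it, which is the percentage of scanner spots whose signal-to-noise score is under 3. All 3 probes were over it on every array of at least 1 group. In the 12 scanner columns, which carry no sample name, the signal-to-noise score ran from 2.24 to 20.08 for Fgf21 and was at least 3 in 11, from 19.19 to 90.32 for Plin3 and from 21.2 to 92.67 for Aldh3a2. The arrays form 3 run sets by their distributions. The second pools of all groups lie in 1 set, and the first pools of each age in a set of their own, so a null-minus-control difference within a pool number lies within 1 set. P-values rest on the spread between the 2 pools of a group, taken over all 4 groups and moderated over all probes by limma. The 2 pools of a group lie in different run sets, so this spread also holds differences between run sets. The small number of pools and arrays limits the precision of every value.

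No probe was matched to Hdac3 or to the other 5 genes of its complex on the list used, so the loss of the Hdac3 transcript was not checked here. None of 11 hepatocyte markers could be matched either. Of 66 genes on 8 marker lists 3 were measured, 1 each for leukocytes, bile duct cells and red cells, and their values stand beside the results. Over all 33010 probes tested, 0.397% were called between P28 Hdac3-null and P28 control liver and 0.0454% at P17 (limma with Benjamini-Hochberg adjustment, adjusted p under 0.05).

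Aldh3a2 gave the most separated values. In P28 Hdac3-null liver the first pool read 16.18 and 16.16 log2 signal and the second 15.92, against 14.49, 14.25 and 14.31 in P28 control liver. In P17 Hdac3-null liver the first pool read 15.46 and 15.15 and the second 15.57, against 14.21, 14.06 and 13.93 in P17 control liver. All null arrays of an age were above all control arrays of that age, and the arrays of the 4 groups did not overlap.

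The Aldh3a2 difference between the group means was 1.70 log2 units at P28 (SE 0.33, n = 2 pools per group), a 3.26-fold higher signal, and the first pools gave 1.80, the second pools 1.61. At P17 it was 1.41 (SE 0.33), or 2.66-fold, with 1.17 and 1.64. Duplicate arrays of 1 RNA pool, which show array error only, differed by at most 0.32 in size for this probe. With each pool of the age left out in turn the P28 difference lay between 1.58 and 1.83 and the P17 difference between 1.27 and 1.54.

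Plin3 was higher in null liver at both ages by a smaller step. The first pool of P28 Hdac3-null liver read 14.71 and 14.84 log2 signal and the second 15.01, against 14.21, 13.89 and 13.90 in P28 control liver. The first pool of P17 Hdac3-null liver read 13.96 and 14.15 and the second 14.11, against 12.95, 13.06 and 13.38 in P17 control liver. No null array overlapped the control arrays of its age, while P17 Hdac3-null and P28 control liver covered the same range.

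The Plin3 difference was 0.92 log2 units at P28 (SE 0.33, n = 2 pools per group), or 1.89-fold, and the first pools gave 0.73, the second pools 1.11. It was 0.89 at P17 (SE 0.33), or 1.85-fold, with 1.05 and 0.73. The spread between the pool differences of an age was thus larger than the distance between the ages. Duplicate arrays of 1 pool differed by at most 0.31 in size.

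Fgf21 was dimmer and less even between pools. In P28 Hdac3-null liver the arrays read 12.28 and 12.42 log2 signal for the first pool and 12.34 for the second, against 11.94 and 11.47 for the first and 9.63 for the second pool of P28 control liver. In P17 Hdac3-null liver they read 9.80 and 11.20 for the first pool and 11.49 for the second, against 10.36, 10.61 and 10.07 in P17 control liver. The P28 null arrays lay close together and above all other arrays, whereas at P17 null and control overlapped.

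The mean Fgf21 difference at P28 was 1.68 log2 units (SE 0.67, n = 2 pools per group), or 3.20-fold, the mean of 0.64 between the first pools and 2.71 between the second. The second P28 control pool was under the detection level, and 2 of 3 arrays of that group were over it; with this array raised to the level the fold was 3.02. Without the second P28 control pool the difference was 0.64, and without the first it was 2.71. At P17 the difference was 0.71 (SE 0.67), or 1.64-fold, and was 0.01 between the first pools and 1.41 between the second. Without the second P17 null pool it was 0.22, and without the first 1.21.

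The duplicate arrays of the first P17 null pool, which carry the same RNA, differed by 1.40 for Fgf21, while the median size of that difference over 12875 probes above the detection level was 0.26. The lower of them lay at the detection level and counts as under it, so that 2 of 3 P17 null arrays were over it. The Fgf21 difference between genotypes at P17 was therefore no larger than the difference between 2 arrays of 1 pool.

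**Figure D1:**
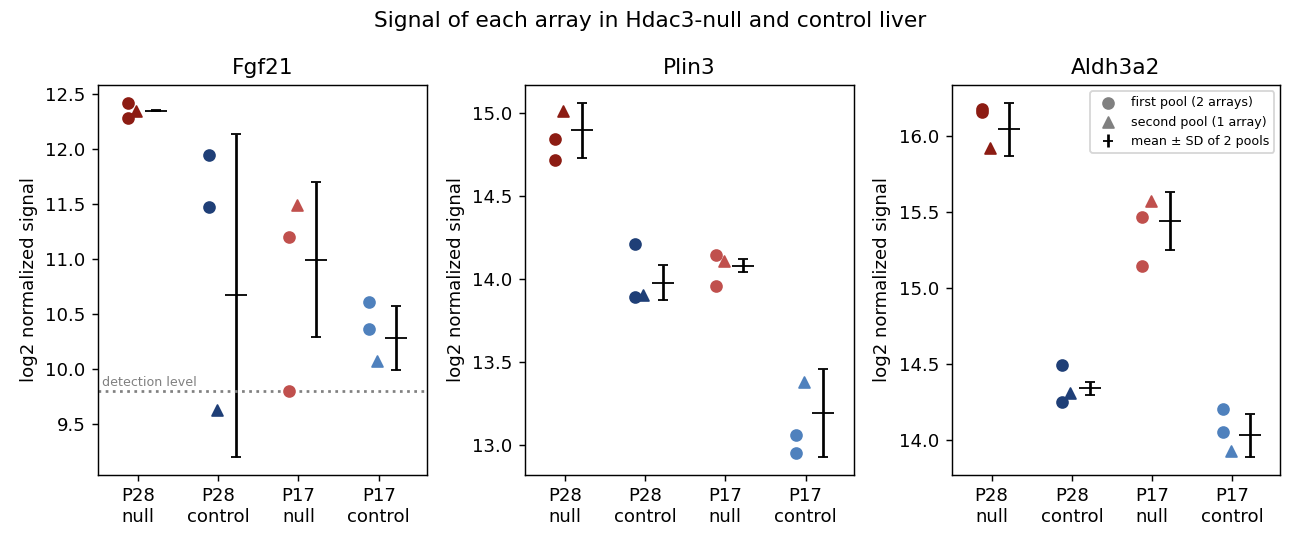
Log2 normalized signal of Fgf21, Plin3 and Aldh3a2 (vertical axes) on each array of P28 null, P28 control, P17 null and P17 control liver; circles are the 2 arrays of the first pool, triangles the array of the second pool, and bars the mean ± SD of 2 pools. Aldh3a2 and Plin3 separate null from control arrays at each age, while the Fgf21 control pools at P28 are spread from 9.63 to 11.94.

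Every null array was above every control array for all 3 genes at P28 and for Plin3 and Aldh3a2 at P17. Among all probes with a value on every array of the groups 9.19% did so at P28 and 7.85% at P17. Null minus control was above 0 in both pools at both ages for all 3 genes, against 10.9% of all probes and 17.1% of those above the detection level. These values chose the genes, and nothing is read from the counts.

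Among 12887 probes above the detection level in a group, the P28 difference of Aldh3a2 lay at percentile 97.0, that of Fgf21 at 96.8 and that of Plin3 at 89.1. At P17 the percentiles were 97.4 for Aldh3a2, 91.1 for Fgf21 and 93.8 for Plin3. The median over these probes was 0.00 at P28 and -0.05 at P17. All 3 genes thus lie in the upper part of the distribution at both ages, and many probes had larger differences.

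**Figure D2:**
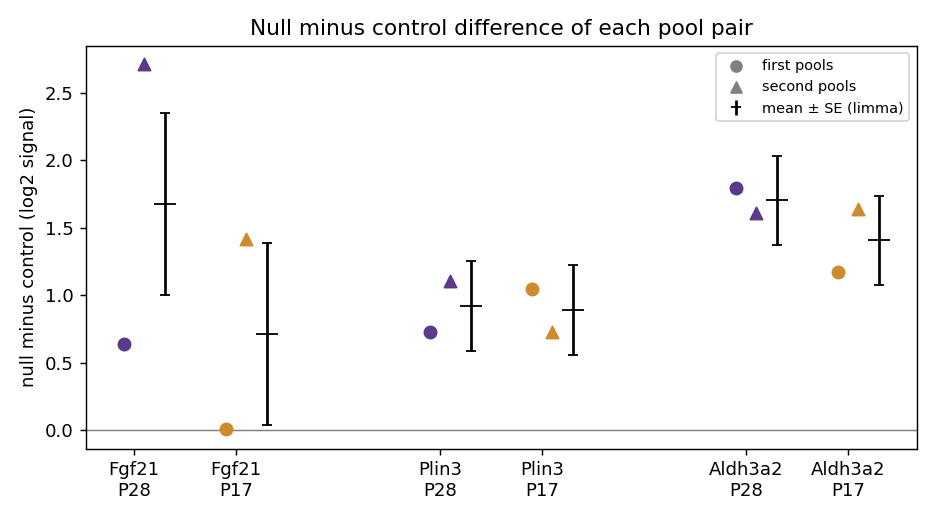
Null minus control difference in log2 signal (vertical axis) of Fgf21, Plin3 and Aldh3a2 at P28 and P17, with circles for the first pools, triangles for the second pools and bars for the mean ± SE from limma. The Aldh3a2 differences lie between 1.17 and 1.80, those of Plin3 between 0.73 and 1.11, and those of Fgf21 between 0.01 and 2.71.

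**Figure D3:**
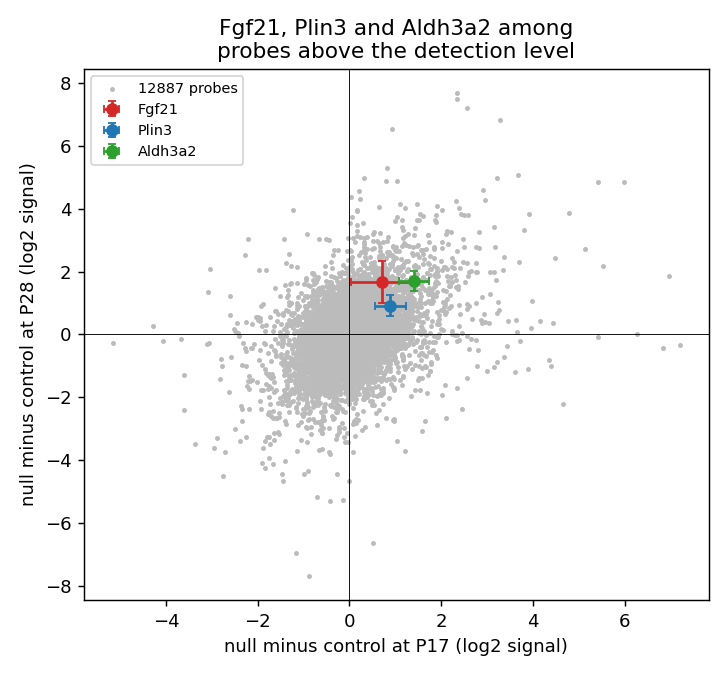
Null minus control difference in log2 signal at P17 (horizontal axis) and P28 (vertical axis) for 12887 probes above the detection level in a group (grey), with Fgf21, Plin3 and Aldh3a2 in colour and SE bars from limma. The coloured points sit in the upper right quadrant, inside the cloud of all probes.

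The order of the group means was the same for the 3 genes. Aldh3a2 averaged 16.04 ± 0.17 log2 signal in P28 null liver, 15.44 ± 0.19 in P17 null, 14.34 ± 0.04 in P28 control and 14.03 ± 0.14 in P17 control liver (SD, n = 2 pools each). Plin3 averaged 14.90 ± 0.17, 14.08 ± 0.04, 13.98 ± 0.10 and 13.19 ± 0.26 in the same order of groups, in which P17 null and P28 control liver do not differ beyond their spread. Fgf21 averaged 12.35 ± 0.0019 in P28 null, 10.99 ± 0.70 in P17 null, 10.67 ± 1.47 in P28 control and 10.28 ± 0.29 in P17 control liver, and its lower 3 groups overlap.

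The change with age was not used to choose the genes, although it shares its pools with the genotype differences. It was tested with limma on 8 pools over all 33010 probes, of which 0.00909% were called in Hdac3-null liver and 0.176% in control liver. None of the 3 genes was called in either genotype. Plin3 differed by 0.82 log2 units between P28 and P17 null liver (SE 0.33, 95% interval 0.04 to 1.59, adjusted p = 0.71, unadjusted p = 0.041). In control liver Plin3 differed by 0.79 between P28 and P17 (SE 0.33, interval 0.01 to 1.56, adjusted p = 0.67, unadjusted p = 0.047 in limma). Of all probes, 6.79% had an unadjusted p under 0.05 with age in null and 7.39% in control liver. Plin3 was higher at P28 in both pools of both genotypes, by 0.73 and 0.91 in null and by 1.05 and 0.53 in control liver.

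Aldh3a2 differed by 0.60 between P28 and P17 null liver (SE 0.33, 95% interval -0.16 to 1.37, adjusted p = 0.82 in limma) and by 0.31 between P28 and P17 control liver (SE 0.33, -0.46 to 1.07, adjusted p = 0.92). It was also higher at P28 in both pools of each genotype, by 0.86 and 0.35 in null and by 0.24 and 0.38 in control liver. For Fgf21 the difference was 1.35 in null (SE 0.67, interval -0.21 to 2.92, adjusted p = 0.79 in limma) and 0.39 in control liver (SE 0.67, -1.17 to 1.95, adjusted p = 0.96). The Fgf21 control pools went opposite ways, 1.22 between the first pools and -0.44 between the second, and without the first P28 control pool the control difference was -0.65. The Fgf21 null difference was 0.69 with the run set as a block, 0.86 without the first P17 null pool and 1.85 without the second. For the first pools the age difference lies across 2 run sets, for the second pools within 1. Whether the genotype difference changes with age was not tested for these genes.

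The pathway lists held 141 genes on 8 lists, of which 6 could be matched to a probe, the 3 genes described here included. Fgf21 was the only measured gene of 10 on the list of FGF21 with its receptors and Plin3 the only one of 25 on the lipid droplet list. Of 35 genes on the PPAR alpha and fatty acid oxidation list only Fgf21 and Aldh3a2 were measured, and of 18 genes of fatty aldehyde and sphingolipid metabolism and 19 of fatty acid synthesis none was. The other 3 measured genes were Aldh3a1 and Aldh3b3 of the aldehyde dehydrogenase family (21 genes) and Eif4ebp1 of the stress response list (10 genes). None of these 3 passed the test in either direction in any of the 4 comparisons in limma, and none had an unadjusted p under 0.05.

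Aldh3a1, whose enzyme oxidises aldehydes of lipid peroxidation in cornea and stomach, lies next to Aldh3a2 at chr11:61208510-61218418. It was under the detection level on all 12 arrays, so no fold is given. Aldh3b3 was over the level on 1 of 3 arrays of P28 null and 1 of 3 of P28 control liver and on none at P17. Its mean signals, 9.42 ± 1.30 in P28 null and 8.97 ± 1.68 in P28 control liver on the log2 scale (SD, n = 2 pools each), were under the level, and no fold is given for it either. Eif4ebp1, an inhibitor of cap-dependent translation and a target of ATF4, was under the level on all arrays.

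Markers of other cells were read beside these results. Of the leukocyte list 1 of 9 genes was measured, Lst1, whose pools read 11.42 and 11.49 log2 signal in P28 null and 10.35 and 10.11 in P28 control liver, a difference of 1.23 (SE 0.33, adjusted p = 0.23 in limma). At P17 the Lst1 pools read 11.59 and 11.85 in null and 11.90 and 11.74 in control liver. The Lst1 groups were apart at P28 and overlapped at P17. With age Lst1 differed by -1.59 in control liver (unadjusted p = 0.0014, adjusted p = 0.23 in limma) and by -0.27 in null liver. Bcl2a1b, which encodes an anti-apoptotic Bcl2 family protein of blood cells, is on no list and was added after its values were seen. Its difference was 2.18 at P28 (SE 0.53, 1.34 and 3.02 by pool, adjusted p = 0.18 in limma) and 1.15 at P17 (SE 0.53, 0.59 and 1.71 by pool, adjusted p = 1.00). Bcl2a1b was thus above 0 in both pools at both ages, as were 17.1% of probes above the detection level, and Lst1 was so at P28 alone. Bcl2a1b is among the genes ranked below by their likeness to the 3 lipid genes, so nothing is read from its direction. The bile duct marker Krt23 differed by -0.91 at P28 and -1.21 at P17 (1 of 7 genes measured). With age Krt23 differed by -2.02 in null liver (unadjusted p = 0.012, adjusted p = 0.53 in limma) and by -2.32 in control liver (unadjusted p = 0.0059, adjusted p = 0.39). The red cell marker Hba-a1, a probe that near-identical globin genes may share, differed by 0.13 at P28 and 0.12 at P17 between genotypes (1 of 7), and with age by -0.38 in null and -0.40 in control liver. None of these 3 markers was called in any of the 4 comparisons. An unadjusted p under 0.05 with age was reached by 6.79% of all probes in null and 7.39% in control liver. The part of these cells in the lipid gene differences was not tested.

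Named genes near the 3 genes were looked up after their values had been seen. Within 1000 kb of the start site, 15 of 36 other protein-coding genes near Aldh3a2 carried a name on the array, 3 of 64 near Plin3 and none of 93 near Fgf21. Near Aldh3a2, 11 of the 15 were above the detection level in a group. Their differences at P28 ran from -1.50 for Fam83g to 0.79 for Dhrs7b, a peroxisomal enzyme of ether lipid synthesis, with a median of -0.17. At P17 they ran from -0.34 for Slc47a1, an exporter of organic cations, to 0.73 for Grap, with a median of 0.06. In limma none of the 15 was called at either age, and 2 of them, Fam83g and Akap10, had an unadjusted p under 0.05 at P28, against 9.32% of all probes, and none at P17, against 4.54%. The 5 of these 11 differences above 0 at P28 were all smaller than the 1.70 of Aldh3a2. Since Aldh3a2 was chosen by that difference, nothing is read from this comparison.

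The nearest named gene to Plin3 was Dpp9, which encodes a cytosolic dipeptidyl peptidase and lies at chr17:56186674-56218889, its midpoint 87.7 kb downstream of the Plin3 start. Its pools read 13.95 and 13.88 log2 signal in P28 null liver, against 16.26 and 16.93 in P28 control liver, so that the direction was opposite to that of Plin3 (difference -2.68, SE 0.36, adjusted p = 0.035 in limma). With age Dpp9 was higher in P28 than in P17 control liver (difference 2.84, SE 0.36, adjusted p = 0.036 in limma) and differed by 0.01 in null liver (SE 0.36, adjusted p = 1.00). Leaving out any single one of the 8 pools ended both the genotype call and the age call in control liver. The genotype difference then lay between -3.02 and -2.35 and the age difference between 2.50 and 3.17. Each of these calls held under 7 of 10 other settings. Mydgf, a secreted growth factor gene 110.3 kb downstream, had a difference of 0.03 at P28 (SE 0.34) and of 0.01 at P17. Its annotated span lies within that of Tnfaip8l1, with a difference of -0.18 at P28 (SE 0.51) and of 0.66 at P17, and a signal from either of these overlapping genes may be shared.

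**Figure D4:**
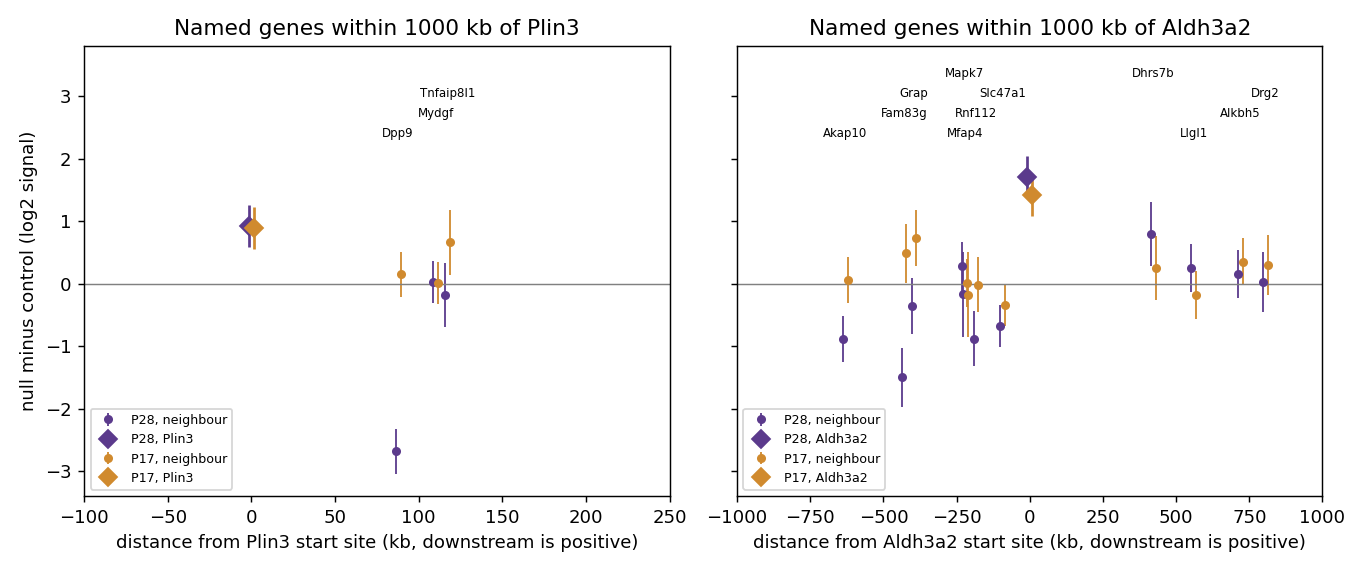
Null minus control difference in log2 signal (vertical axes, ± SE from limma) of named genes above the detection level in a group, by the distance of the gene's midpoint from the start site of Plin3 (left) or Aldh3a2 (right) in kb, with diamonds for Plin3 and Aldh3a2 themselves, purple for P28 and orange for P17. Dpp9 lies at -2.68 at P28 beside Plin3, and the neighbours of Aldh3a2 scatter around 0 between -1.50 and 0.79.

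The named genes with the pattern most like each of the 3 were ranked by Pearson's r over the 8 pools. The ranking covered the 94 named genes above the detection level on every array, without the gene itself. This is a description over pools that share genotype, age and run set. The genotype difference that chose the 3 genes enters r, so a high r with a gene higher in null liver is not independent of that choice. Aldh3a2 was most like Lgals1, which encodes galectin-1 (r = 0.97), followed by Bcl2a1b (0.89), Mpdu1, of dolichol-linked sugar transfer (0.88), Plin3 (0.86) and the transcription factor gene Jun (0.83). Plin3 was most like Aldh3a2 (r = 0.86), then Lgals1 (0.81), Crip1 (0.78), the major urinary protein probe Mup1 (0.76) and Bcl2a1b (0.73). Fgf21 was most like Bcl2a1b (r = 0.88), then Acyp2 (0.84), the copper chaperone gene Atox1 (0.80), Dhrs7b (0.80) and the chemokine gene Ccl19 (0.77). Bcl2a1b stood among the top 5 for each of the 3, and Lgals1 for Plin3 and Aldh3a2, and nothing is read from these repeats. The Mup1 difference between genotypes was -0.20 at P28 and 2.34 at P17. With age Mup1 differed by 5.06 in null and 7.60 in control liver. Probes of Bcl2a1b and Mup1 may be shared with near-identical genes.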

How the data were processed

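The authors measured pooled liver RNA on 12 single-colour ABI1700 arrays, which read digoxigenin-labelled cRNA by chemiluminescence, per the labels' protocols. In their deposited value table each of 33012 probes has a linear intensity per array, and 0.72% of its cells are empty. Its distributions are alike within 3 run sets (largest gap 0.0034 between cumulative distributions) and differ between them (smallest gap 0.1824), so the deposited intensity values had been normalized within sets, by software not named in the labels. Besides signals and flags the scanner exports hold, per the file headers, a signal-to-noise score. They were used for probe identifiers and, over all 12 arrays together, for the score: their 52 value columns name no sample and were assigned to none. The second P28 null pool carries a copy of the export of the first P28 pools. By its values it belongs with the other second pools, and these values were followed.

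After quantile normalization over 12 arrays, values under the 5th percentile (174.7) were set to it. Their log2 was averaged per pool, and the 4 groups were fitted with limma 3.58.1 in R 4.3.3 (lmFit and eBayes without covariates, 8 pools, 4 residual degrees of freedom), over 33010 probes with a value in every group, and the code was tested on simulated data. Probes were named by their RefSeq transcript, version dropped, through a RefSeq table of GRCm38.p6, which named 311 of the 517 probes with such an identifier. The members and lists were chosen with earlier results of these data known. By the rule for named genes the text names the 3 genes, list genes that passed a test or were measured, and for each gene the 5 named genes most like it. Genes named only as neighbours of Plin3 or Aldh3a2, Dpp9 included, fall outside this rule and were added after their values had been seen. None of Fgf21, Plin3 and Aldh3a2 had a second probe.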

Additional observations from a re-analysis of the deposited data

Results flagged for a closer look

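Among the 3 named genes near Plin3 and the 15 near Aldh3a2, 4 had differences that changed side with age. Their null-minus-control differences of both pools were on one side of 0 at P28 and on the other side at P17. Whether the ages differ was not tested. The share of all probes that do so is not given here, and nothing is read from the count. Of the 4 only Dpp9 was called between genotypes, at P28. Dpp9 differed by -2.68 at P28 and 0.15 at P17. Its mean log2 signal was 13.92 in P28 null, 16.60 in P28 control, 13.91 in P17 null and 13.76 in P17 control liver, so that P28 control liver stood apart from the other 3 groups. Fam83g differed by -1.50 at P28 and 0.49 at P17, Grap by -0.36 and 0.73, and Tnfaip8l1 by -0.18 and 0.66. Fgf21, Plin3 and Aldh3a2 were above 0 in both pools at both ages, Fgf21 by only 0.01 between the first pools at P17. That direction chose the 3 genes, so no contrast with the 4 neighbours is read from it.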

How the results depend on the processing

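The genotype differences of Fgf21, Plin3 and Aldh3a2 were recomputed 108 times, and 48 of these values equal the reported one by construction (blocks, trend and robust, the detection level, pools of the other age). The other 60 were above 0 and within the SD of the 2 pool differences of the reported value, which is no independent support, since these differences chose the genes. Leaving out a pool moved Fgf21 most, from 0.64 to 2.71 at P28 and from 0.22 to 1.21 at P17. None of the 6 age differences was called under any of these settings. The Fgf21 age difference in control liver turned to -0.27 when the run set entered as a block (adjusted p = 0.92 in limma, at least 0.86 over the settings that keep all pools). It lay between -0.65 and 1.43 with 1 pool left out. With the run set as a block, the age difference averaged over both genotypes comes from the second pools alone, which share 1 run set. Their Fgf21 age differences were 0.86 in null and -0.44 in control liver, and why the pools differ was not tested. The replicate block by pool cannot move a difference in this balanced design (Fgf21 at P28 stays at 1.68) and changed no age call of the 3 genes. Pool numbers share 2 values per comparison and no label ties them, although the difference between second and first pools correlated between groups with r = 0.52 to 0.65 over 12887 probes.

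Counts of called probes moved more. Against 15 at P17 and 131 at P28, the block by pool gave 5 and 246, the deposited values without further normalization 2 and 13, only probes above the detection level 101 and 521, the run set as a block 0 and 5, and eBayes with trend and robust 126 and 411. Technical replicate 1 alone gave 65 at P28, and technical replicate 2 alone 9 and 79. For age in null liver, against 3, an offset of 100 in place of the floor gave 29, the detection level 99, the run set as a block 0 and trend with robust 122. For age in control liver, against 58, the deposited values gave 22, the detection level 153, the run set as a block 2 and trend with robust 149. Leaving out 1 pool gave 0 to 5, 0 to 28, 0 to 1 and 13 to 40. Other probes of the 3 genes could not be tried, since each has 1. Signal over background limits Fgf21, which had a score under 3 in 1 of 12 scanner columns.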
